A study of Mus musculus with 8 samples.

Results

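The genes described are 10 genes of de novo lipogenesis, the making of fatty acids from carbon in the cytosol, with the enzymes that supply its carbon and reducing power: Acly, Acss2, Acaca, Acacb, Fasn, Me1, Scd1, Elovl6, Thrsp and Pnpla3. They were taken by symbol from a fixed list, and all 10 were found among the 24079 gene symbols shared by both assays. Livers of male C57BL/6 mice were profiled by RNA-seq, which measures polyadenylated mRNA, and by Ribo-seq, which reads the mRNA fragments that ribosomes protect (footprints, RPF). All mice ate the high-fat diet, with 45% of energy as fat, from week 8 and were 25 weeks old by the labels, although another label gives 25 weeks as the time on the diet, so the time on the diet is uncertain. The HF group received no betaine, and the HB group received betaine, a methyl donor, at 2% (w/v) in its water. Each group had 2 libraries per assay (HF1, HF2, HB1 and HB2). The labels describe RNA of separate preparations that was mixed in equal parts before library construction, whereas the study's methods describe single mice near the mean body weight, so each library counts as a library and not as a mouse, and p-values measure the spread between libraries, which may be technical. No group on a standard diet was analysed here, and the betaine comparison holds for mice that were all on the high-fat diet.

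In hepatocytes, citrate leaves the mitochondria and is cleaved to acetyl-CoA, which acetyl-CoA carboxylase turns into malonyl-CoA and fatty acid synthase builds into palmitate. Elongases and desaturases then convert palmitate into longer and monounsaturated fatty acids, and malic enzyme and the pentose phosphate pathway provide the NADPH. The pathway is known to respond to insulin through SREBP-1c and to glucose through ChREBP (encoded by Mlxipl), and it is one source of the fat that builds up in a steatotic liver.

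Levels are in RPKM, reads scaled by gene length in kilobases and by the library's total. The RNA-seq libraries held 11661207 to 22543471 reads on genes and the Ribo-seq libraries 141890 (HB2) to 1056546 (HF2), as recovered from the steps between low values. Hepatocyte markers such as Alb and Apoa1 summed to between 45441 and 52637 RPKM in the RNA-seq libraries, so the defining markers of the labelled tissue were present. The 6 adipocyte markers summed to 9.63 and 12.4 RPKM in the HF libraries and to 22.6 and 23.7 in the HB libraries. Nearly all of this was Cfd, while Adipoq, Plin1, Lep, Retn and Adig were each at or below 0.539 RPKM in every RNA-seq library and at 0 in every Ribo-seq library. Erythroid markers summed to 2248 RPKM of mRNA in HB2, against 523 to 738 in the other libraries. Between the groups, the marker genes called in mRNA were Lyz2 of macrophages (5.19 and 11.5 RPKM in the HF libraries, 38.3 and 35.6 RPKM in the HB libraries) and Hbb-bs of erythroid cells (75.2 and 67.9 against 265 and 643 RPKM). Those called in footprints, all lower in the HB group, were Cd68, Pecam1 and Stab2, and the part of these cells in the results was not tested. In mRNA the other macrophage markers did not follow Lyz2 as a set. Clec4f fell from 72.6 and 64.4 to 48.9 and 49.6 RPKM, Ptprc also fell, Marco rose, and Adgre1 and Cd68 overlapped. The macrophage list summed to 95.4 and 101 RPKM in the HF libraries and to 109 and 104 RPKM in the HB libraries. In erythroid footprints the order was another, with 2559 RPKM in HB1 and 381 in HB2, and 1109 and 617 in HF1 and HF2. In pieces of whole liver, fewer cells of a type and less RNA per cell cannot be told apart.

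At the mRNA level, the estimates of the lipogenic genes were higher in the HB group, with the groups apart in 6 of the 10. All 10 had a log2 fold change above 0, from 0.85 (Acaca) to 2.50 (Me1), with a median of 1.61, whereas the median of all 10687 genes tested was -0.19. Pnpla3 reached the minimum mean of 1 RPKM for the test only through HB1, so its sign adds nothing to that count. At a minimum mean of 5 RPKM, which leaves Pnpla3 out, the median of the members was 1.59. Me1 was the gene called at the thresholds of the study's methods for mRNA, namely an unadjusted p under 0.001 (limma) together with a log2 difference beyond 1. Of all genes tested, 2.30% were called higher and 6.56% lower by this rule. With a Benjamini-Hochberg adjusted p under 0.05 over all genes in place of the unadjusted p, 4 members passed (Me1, Acss2, Thrsp and Fasn), against 17.7% of all genes in either direction. In 6 members both HB libraries lay above both HF libraries, which was the case for 24.8% of all genes tested. The library HB1 was the highest of the 4 for all 10 members, and the calls by the adjusted rule depended on it. Without HB1, Me1 passed both rules and no other member passed either, Acss2 and Thrsp keeping an adjusted p of 0.0311 and 0.0476 (limma) with log2 fold changes of 0.91 and 0.96, under the fold threshold. Pnpla3 was not tested in that fit.

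**Figure D1:**
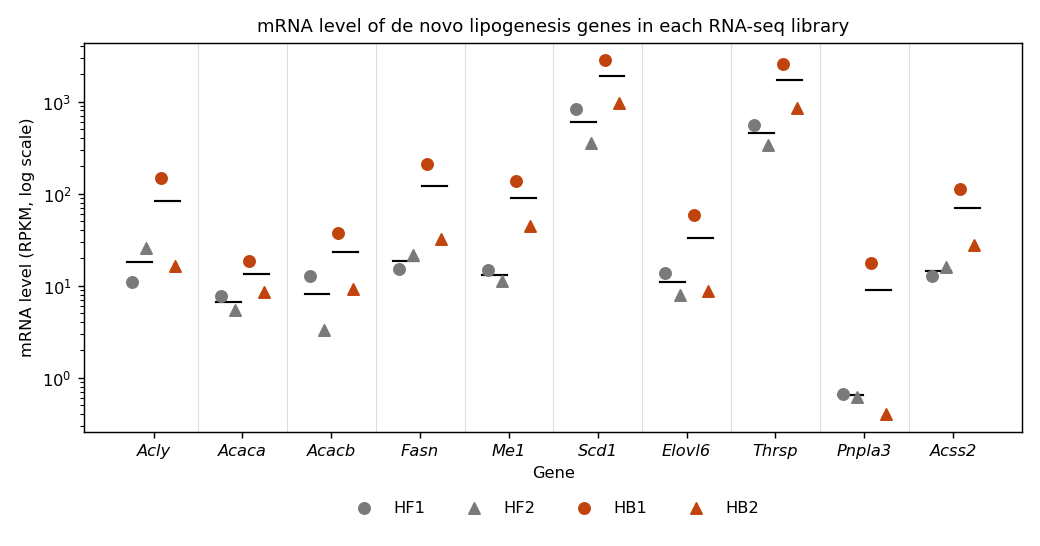
mRNA level (RPKM, logarithmic axis) of each lipogenic gene in HF1, HF2 (grey circles and triangles), HB1 and HB2 (red circles and triangles), with group means as black bars. HB1 is the highest library for all 10 genes, and HB2 lies above both HF libraries for 6 of them.

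The genes that supply cytosolic acetyl-CoA were examined first. Acly (GRCm38, chr11:100476353-100528000, minus strand) encodes ATP citrate lyase, which splits citrate that has left the mitochondria. Its mRNA level was 10.9 in HF1, 25.5 in HF2, 149 in HB1 and 16.5 RPKM in HB2. The groups overlapped, since HB2 lay between the HF libraries, and the log2 fold change of 1.53 (SE 0.79) had an adjusted p of 0.174 (limma). Acss2 (chr2:155517948-155585724, plus strand) encodes the cytosolic and nuclear acetyl-CoA synthetase, which makes acetyl-CoA from acetate. Its level was 12.7 and 15.8 RPKM in HF1 and HF2, and 113 and 27.6 RPKM in HB1 and HB2. Both HB libraries exceeded both HF libraries, with a log2 fold change of 1.91 (SE 0.52, adjusted p = 0.0251, limma).

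The carboxylases commit acetyl-CoA to synthesis. Acaca (chr11:84129672-84401651, plus strand), the cytosolic acetyl-CoA carboxylase 1, was at 7.73 and 5.51 RPKM in HF1 and HF2 and at 18.4 and 8.48 RPKM in HB1 and HB2. The groups were apart, but HB2 was close to HF1, and the log2 fold change of 0.85 (SE 0.35, adjusted p = 0.0990, limma) was the smallest of the members. Acacb (chr5:114146535-114250761, plus strand) encodes acetyl-CoA carboxylase 2, whose malonyl-CoA restrains mitochondrial fatty acid uptake. Its level was 12.8 and 3.30 RPKM in the HF libraries and 37.0 and 9.31 RPKM in the HB libraries. Here HB2 fell below HF1, and the log2 fold change of 1.36 (SE 0.62) had an adjusted p of 0.131 (limma).

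Fasn (chr11:120805846-120824547, minus strand), the fatty acid synthase that assembles palmitate, was at 15.2 in HF1, 21.5 in HF2, 212 in HB1 and 32.4 RPKM in HB2. Both HB libraries were above both HF libraries, with a log2 fold change of 2.14 (SE 0.66, adjusted p = 0.0391, limma). Without HB1 the log2 fold change of Fasn was 0.80 (adjusted p = 0.0585, limma).

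Me1 (chr9:86581371-86695953, minus strand), the cytosolic malic enzyme that makes NADPH while turning malate into pyruvate, rose in the HB group. Its level was 15.0 and 11.3 RPKM in HF1 and HF2, and 135 and 44.8 RPKM in HB1 and HB2. HB2, the lower of the HB libraries, was still well above both HF libraries. The log2 fold change was 2.50 (SE 0.44, 95% interval 1.51 to 3.48, adjusted p = 0.00656, limma). Without HB1 it was 1.71 (adjusted p = 0.00454), which kept the call.

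Downstream of palmitate, Scd1 (chr19:44394455-44407879, minus strand) encodes the liver's main stearoyl-CoA desaturase. It was the most abundant member per length, at 839 and 351 RPKM in HF1 and HF2 and at 2804 and 961 RPKM in HB1 and HB2. The groups were apart, with HB2 close to HF1, and the log2 fold change of 1.59 (SE 0.53) had an adjusted p of 0.0503 (limma). Elovl6 (chr3:129532355-129638495, plus strand) encodes the elongase that extends palmitate to stearate. Its level of 57.9 RPKM in HB1 stood apart from 13.8 in HF1, 7.99 in HF2 and 8.83 RPKM in HB2. The log2 fold change of Elovl6 was 1.06 (SE 0.65, adjusted p = 0.250, limma).

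Thrsp (chr7:97412938-97417730, minus strand) encodes Spot 14, a small protein induced by thyroid hormone and carbohydrate that is linked to lipogenic activity. Its mRNA level was 561 and 341 RPKM in HF1 and HF2 and 2576 and 854 RPKM in HB1 and HB2. Both HB libraries were higher than both HF libraries, with a log2 fold change of 1.76 (SE 0.48, adjusted p = 0.0262, limma). Pnpla3 (chr15:84167837-84187236, plus strand), a lipid droplet protein of the patatin-like phospholipase family that is induced with lipogenesis, was the least abundant member. Its RPKM imply a length of 4649 bases, against 1313 for its longest GENCODE transcript, so its rank among the members depends on that length. It was at 0.664 and 0.619 RPKM in HF1 and HF2, at 17.5 RPKM in HB1 and at 0.404 RPKM in HB2, which was the lowest library. Its HB1 value rested on 1831 reads and its HB2 value on 34, and without HB1 Pnpla3 no longer reached the minimum mean of 1 RPKM for the test. The fold change of Pnpla3 (log2 1.63, SE 0.87, adjusted p = 0.188, limma) therefore came from HB1.

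The promoters of the members that passed the adjusted p are shown, since these members were higher together at the mRNA level. RefSeq windows on GRCm38.p6, which run from 250 bases before to 50 bases after the RefSeq start, were given for 9 members. The GENCODE gene reaches further upstream than the RefSeq start by 180 bases in Thrsp, 95 in Acss2 and 39 in Me1, and these bases are left out, so that each sequence ends where the GENCODE gene begins. For Thrsp this leaves 70 bases with no match, which are not shown. For Me1, which has 2 windows, the upstream one is given. Capitals mark exact matches to the NF-Y box CCAAT or to the Sp1 box GGGCGG, on either strand, so that a match on the opposite strand is shown as the reverse complement of these letters. All are read 5′ to 3′ on the gene's strand.
Fasn, chr11:120824548-120824797, minus strand: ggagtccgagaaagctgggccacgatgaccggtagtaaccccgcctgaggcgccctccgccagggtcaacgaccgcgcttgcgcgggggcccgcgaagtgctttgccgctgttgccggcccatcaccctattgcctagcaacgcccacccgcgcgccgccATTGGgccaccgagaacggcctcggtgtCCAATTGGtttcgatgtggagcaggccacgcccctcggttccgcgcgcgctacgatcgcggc
Me1, chr9:86695954-86696164, minus strand: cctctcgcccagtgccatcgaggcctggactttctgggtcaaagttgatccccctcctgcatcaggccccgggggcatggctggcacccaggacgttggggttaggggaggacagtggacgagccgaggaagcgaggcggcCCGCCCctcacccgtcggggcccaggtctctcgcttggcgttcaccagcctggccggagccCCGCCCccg
Acss2, chr2:155517793-155517947, plus strand: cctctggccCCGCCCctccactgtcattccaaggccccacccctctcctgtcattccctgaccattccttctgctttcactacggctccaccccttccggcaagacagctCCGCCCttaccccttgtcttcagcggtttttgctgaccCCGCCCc

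The Fasn sequence holds 3 NF-Y boxes, of which 2 overlap, and no Sp1 box. The Me1 sequence holds 2 Sp1 boxes and the Acss2 sequence 3, and neither holds an NF-Y box before the GENCODE gene. The 2 NF-Y boxes in the window of Thrsp and the 1 in the window of Acss2 lie inside the GENCODE gene. Over the full windows of 300 bases, the NF-Y box was found in 7 members (Acacb, Acly, Acss2, Fasn, Me1, Pnpla3 and Thrsp) and in 37.4% of all 32851 windows. For Me1 this match lay in its other window. The Sp1 box was found in 4 members (Acly, Acss2, Me1 and Pnpla3) and in 35.7% of all windows. Neither the E-box CACGTG nor the sterol element TCACNCCAC was found in the 10 windows of the members, and they were found in 7.15% and 1.24% of all windows. The windows of Acaca and Acacb and the other window of Me1 lie wholly inside the annotated genes. These are matches of letters and not binding sites.

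The members differed more between HB1 and HB2 than most genes did. Relative to library totals, mRNA of all 10 members was higher in HB1 than in HB2, by 2.16-fold (Acaca) to 43.2-fold (Pnpla3), with a median of 4.04-fold, and the exact 95% interval of every ratio was above 1. Over all genes tested the median ratio was 1.03, and 2.51% of genes were at least 2-fold higher in HB1. Fasn was 6.56-fold higher in HB1 (95% interval 6.38 to 6.74) and Acly 9.03-fold (8.53 to 9.56). These intervals cover counting error only, and they compare libraries rather than conditions. Beside this, adipocyte marker mRNA summed to 22.6 RPKM in HB1 and 23.7 in HB2, stellate marker mRNA to 68.1 and 40.8, and erythroid marker mRNA to 738 and 2248. Most of the stellate sum was Dcn (57.8 RPKM in HB1 and 30.6 in HB2). Lrat was also higher in HB1, while Col1a1, Col3a1 and Des were higher in HB2. The part of these cells in the result was not tested.

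Between HF1 and HF2 the members went in both directions. Acacb mRNA was 3.89-fold higher (95% interval 3.44 to 4.40) and Scd1 mRNA 2.39-fold higher (2.35 to 2.43) in HF1. Acly, Fasn and Acss2 mRNA were lower in HF1, at ratios of 0.427, 0.706 and 0.804, with intervals below 1. The groups thus held libraries that differed from each other in these genes, and this spread enters the standard errors above. What set the libraries of a group apart is not given by the labels.

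**Figure D2:**
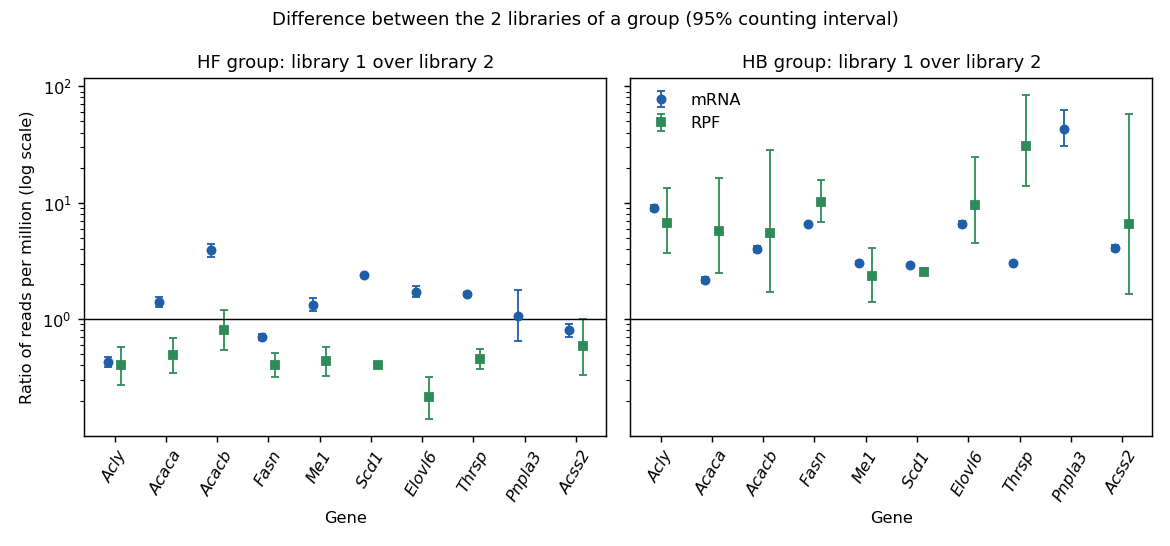
Ratio of reads, each relative to its library's total, between library 1 and library 2 of the HF group (left) and the HB group (right) for mRNA (blue circles) and footprints (green squares), on a logarithmic axis, with exact 95% counting intervals. In the HB group all ratios lie above 1 in both assays, whereas footprint ratios in the HF group lie below 1; Pnpla3 footprints, with 3 reads in all, are left out.

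Without HB1, 7 of the 9 members that could still be tested had an mRNA log2 fold change above 0, with a median of 0.80, and Acly (-0.02) and Elovl6 (-0.23) fell just below 0. Without HB2 all 10 were above 0, with a median of 2.73, and 9 were called higher, beside 4.67% of all genes in that fit. In these fits the lone library was assumed to vary like the other group. The direction of the mRNA difference therefore held for Me1, Fasn, Thrsp, Acss2, Scd1, Acaca and Acacb with either HB library left out, and its size did not.

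Footprints of the lipogenic genes overlapped between the groups. Of the 9 members tested, 3 had an RPF log2 fold change above 0 and 6 below, from -0.89 (Thrsp) to 0.79 (Fasn), with a median of -0.38 beside -0.43 for all 11190 genes tested, whereas all 9 were below 0 when libraries were rescaled to a common sum, with a median of -1.26 beside -1.19 for all genes. No member was called, which for footprints requires an unadjusted p under 0.05 (limma) and a log2 difference beyond 1. At any fold, 0 members had an unadjusted p under 0.05, beside 10% of all genes. The limma-voom test on recovered reads also called 0 members, beside 3.63% of all genes called higher and 6.1% lower. In that test Fasn (log2 0.88) and Acly (log2 0.77) had an unadjusted p under 0.05 and missed the fold threshold. By the main test, 1.58% of all genes were called higher and 7.86% lower. Both HB libraries lay above both HF libraries in 9.07% of all genes and below them in 33.2%, against 0 of the 9 members in either direction.

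**Figure D3:**
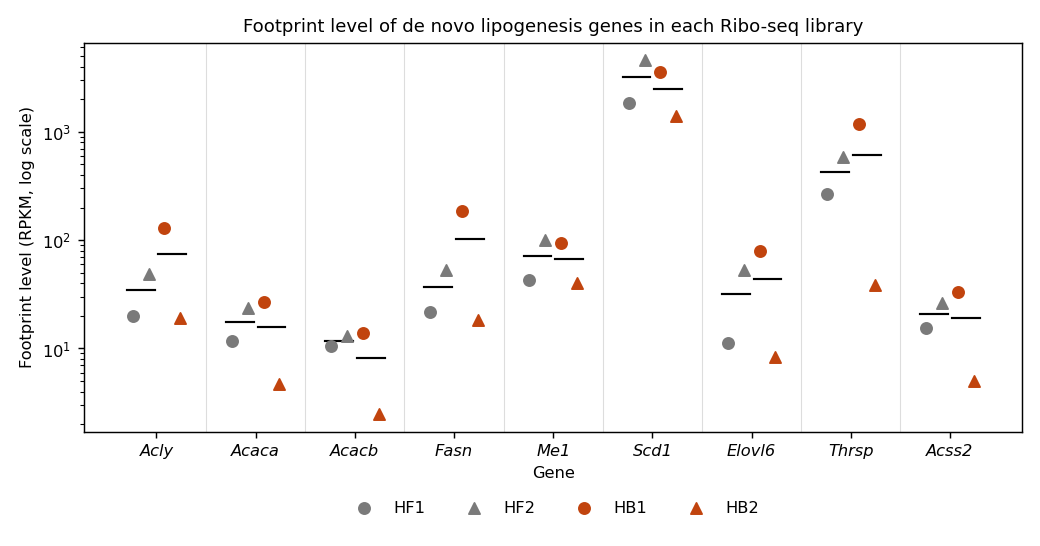
Footprint level (RPKM, logarithmic axis) of the 9 lipogenic genes with footprints in all libraries; grey marks are HF1 (circle) and HF2 (triangle), red marks HB1 and HB2, and black bars group means. HB2 is the lowest library for all 9 genes and HB1 the highest for 7, so the groups overlap throughout.

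HB2 was the lowest of the 4 Ribo-seq libraries for all 9 members, and HB1 was the highest for 7 of them. Fasn footprints were at 21.5 and 53.0 RPKM in HF1 and HF2 and at 186 and 18.4 RPKM in HB1 and HB2. The HB libraries thus enclosed the HF libraries, and the log2 fold change of 0.79 had a standard error of 1.16 (95% interval -2.21 to 3.79, adjusted p = 0.815, limma). Acly showed the same arrangement, with 19.8 and 49.2 RPKM in HF1 and HF2 against 128 and 19.1 RPKM in HB1 and HB2. Its log2 fold change was 0.66 (SE 1.00, adjusted p = 0.821, limma).

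Me1, whose mRNA rose, had footprint levels of 43.3 and 99.3 RPKM in HF1 and HF2 and of 93.3 and 40.2 RPKM in HB1 and HB2. The groups covered nearly the same range, and the log2 fold change was -0.10 (SE 0.60, 95% interval -1.66 to 1.46, adjusted p = 0.959, limma).

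Scd1 footprints were the most abundant of the members, at 1845 and 4559 RPKM in HF1 and HF2 and at 3558 and 1394 RPKM in HB1 and HB2. HF2 and HB1 were high and HF1 and HB2 low, and the log2 fold change was -0.38 (SE 0.68, 95% interval -2.13 to 1.37, limma). This value rests on 957 reads in the shallowest library and is the best counted of the members. Elovl6 footprints were likewise high in HF2 and HB1, with HB1 the highest, at 11.3 and 52.5 RPKM in HF1 and HF2 and 79.8 and 8.29 RPKM in HB1 and HB2, and its log2 fold change was 0.10 (SE 1.25, limma).

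Thrsp footprints differed most between the HB libraries. They were at 269 and 588 RPKM in HF1 and HF2, at 1182 RPKM in HB1 and at 38.4 RPKM in HB2, where they rested on 6 reads. HB1 was the highest and HB2 the lowest library, and the log2 fold change of -0.89 had a standard error of 1.63 (limma). Acss2 footprints were at 15.5 and 26.1 RPKM in the HF libraries and at 33.0 and 4.98 RPKM in the HB libraries, the last from 2 reads (log2 -0.57, SE 0.91, limma).

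For the carboxylases, Acaca footprints were at 11.7 and 23.6 RPKM in HF1 and HF2 and at 26.7 and 4.68 RPKM in HB1 and HB2 (log2 -0.49, SE 0.89, limma). Acacb footprints were at 10.6 and 13.1 RPKM in HF1 and HF2 and at 13.8 and 2.49 RPKM in HB1 and HB2 (log2 -0.83, SE 0.82, limma). In both genes HB1 was slightly above HF2 and HB2 was well below HF1, on 6 and 3 reads. Pnpla3 had 1 and 2 footprint reads in HF1 and HF2 and 0 in both HB libraries. A count of 0 allows up to 2.51 RPKM in HB1 and 4.55 RPKM in HB2, so that no difference in Pnpla3 footprints was detectable at this depth.

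The difference between the HB libraries was present in footprints as well. All 9 members had more footprints relative to the total in HB1 than in HB2, from 2.32-fold (Me1) to 30.8-fold (Thrsp), with a median of 6.62-fold and every exact 95% interval above 1. At this depth a ratio of at least 2-fold was also found in 28.7% of all genes tested. Erythroid marker footprints (2559 against 381 RPKM) and adipocyte marker footprints (15.3 against 0 RPKM, all Cfd) were also higher in HB1 than in HB2, as were those of sinusoidal endothelial cells (109.6 against 58.9 RPKM), macrophages (99.6 against 72.0 RPKM), stellate cells (86.0 against 78.9 RPKM) and pancreatic acinar cells (37.6 against 25.5 RPKM). Within these sums the markers did not all move together. Lower in HB1 were Clec4f (27.6 against 47.0 RPKM) and Adgre1 (6.16 against 13.4 RPKM) of macrophages. The same held for Dcn of stellate cells (64.3 against 69.9 RPKM) and Cela1 of acinar cells (7.03 against 25.5 RPKM). The other macrophage, stellate and acinar markers were higher in HB1 or had no footprints in either HB library. Hepatocyte marker footprints were at 38012 and 43313 RPKM, and the part of these cells in the result was not tested. The direction of the group comparison followed the library that was kept: without HB1 all 9 members were below 0 (median -1.46, 4 called lower, beside 22.5% of all genes called lower in that fit), and without HB2 all 9 were above 0 (median 0.69, 2 called higher, beside 5.00% of all genes called higher). In the HF group the footprints of 9 members were lower in HF1 than in HF2, and for 7 of them the interval of the ratio lay below 1.

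The part of each library taken up by the members shows the same pattern. They took 0.523% and 0.261% of RNA-seq reads in HF1 and HF2, and 2.08% and 0.642% in HB1 and HB2. Of Ribo-seq reads they took 0.998% and 2.45% in HF1 and HF2, and 2.22% and 0.732% in HB1 and HB2 (exact 95% interval in HB2 0.688% to 0.777%). Scd1 supplied most of these reads. Without it, the other 9 members held 0.117%, 0.0911%, 0.727% and 0.177% of RNA-seq reads in HF1, HF2, HB1 and HB2, and 0.105%, 0.244%, 0.496% and 0.0571% of Ribo-seq reads. The RNA-seq share was thus highest in HB1 with or without Scd1, while the highest Ribo-seq share was in HF2 with Scd1 and in HB1 without it.

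Translation efficiency (TE) is the ratio of footprint to mRNA RPKM in libraries with the same group and number. Its estimates for the lipogenic genes were lower in the HB group, with 3 of the 9 tested called before adjustment. All 9 members tested had a log2 fold change of TE below 0, from -0.87 (Acly) to -2.65 (Thrsp), with a median of -1.97 beside -0.35 for all 9455 genes tested. Acacb, Me1 and Acss2 were called lower (unadjusted p under 0.05 by limma with a log2 difference beyond 2), against 4.60% of all genes called lower and 1.49% called higher. None of the 9 passed an adjusted p of 0.05, and none of all genes tested did, the smallest adjusted p being 0.328 (limma). Both HB ratios lay below both HF ratios in 8 of the 9 members, as in 31.9% of all genes. TE is computed from the mRNA and footprint levels given above and is no independent measure, and the labels do not say that libraries of the same number come from the same liver.

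**Figure D4:**
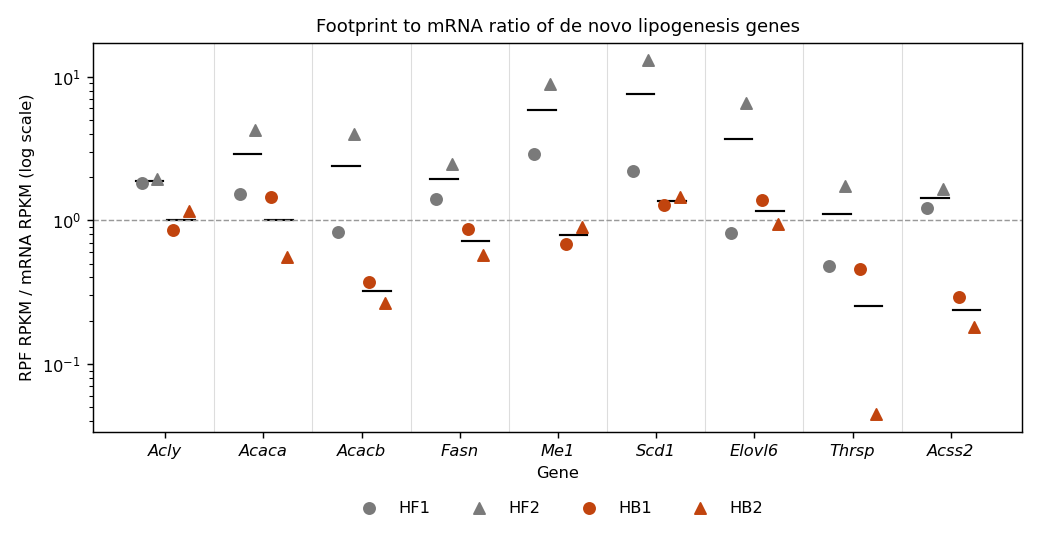
Ratio of footprint to mRNA RPKM (logarithmic axis, dashed line at 1) for the 9 lipogenic genes with footprints in all libraries, in HF1, HF2 (grey), HB1 and HB2 (red), with group means as bars. HF2 has the highest ratio for all 9 genes, and both HB ratios lie below both HF ratios for all but Elovl6.

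The TE of Me1 was 2.89 and 8.81 in HF1 and HF2 and 0.689 and 0.896 in HB1 and HB2. The groups were clearly apart, with a log2 fold change of -2.59 (SE 0.65, adjusted p = 0.334, limma). Acss2 had a TE of 1.22 and 1.65 in the HF libraries and of 0.292 and 0.180 in the HB libraries (log2 -2.48, SE 0.64, adjusted p = 0.334, limma). For Acacb it was 0.828 and 3.96 in HF1 and HF2 and 0.372 and 0.268 in HB1 and HB2 (log2 -2.19, SE 0.80, adjusted p = 0.378, limma). For Me1 and Acss2 the mRNA groups were apart and the footprint groups overlapped, whereas for Acacb both overlapped.

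Fasn ratios of 1.42 and 2.46 in HF1 and HF2 faced 0.875 and 0.569 in HB1 and HB2 (log2 -1.35, adjusted p = 0.424, limma). Scd1 ratios of 2.20 and 13.0 faced 1.27 and 1.45 (log2 -1.97, adjusted p = 0.424, limma). For Thrsp the ratios were 0.480 and 1.73 against 0.459 and 0.0449 (log2 -2.65, adjusted p = 0.469, limma). The groups were apart in these genes, but by little in Thrsp, and none was called. Acly had the smallest difference, with 1.82 and 1.93 against 0.862 and 1.16, and Acaca had 1.51 and 4.28 against 1.45 and 0.552. Elovl6, at 0.817 and 6.57 against 1.38 and 0.939, was the member whose groups overlapped.

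HF2 had the highest TE of the 4 libraries for all 9 members. Without HF2 the median log2 fold change was -0.96 and no member was called, Me1 standing at -1.81 and Elovl6 turning to 0.46. A single limma model over the 8 libraries with an interaction of group and assay gave the same fold changes and called 1 member, Me1, as lower, beside 4.39% of all genes. With a pseudocount of 0.1 the call of Acacb was lost (log2 -2.48), while Me1 and Acss2 were called. The lower TE of Acly, Acaca, Acacb, Fasn, Me1, Scd1, Thrsp and Acss2 kept its direction with each library left out, and the calls did not.

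**Figure D5:**
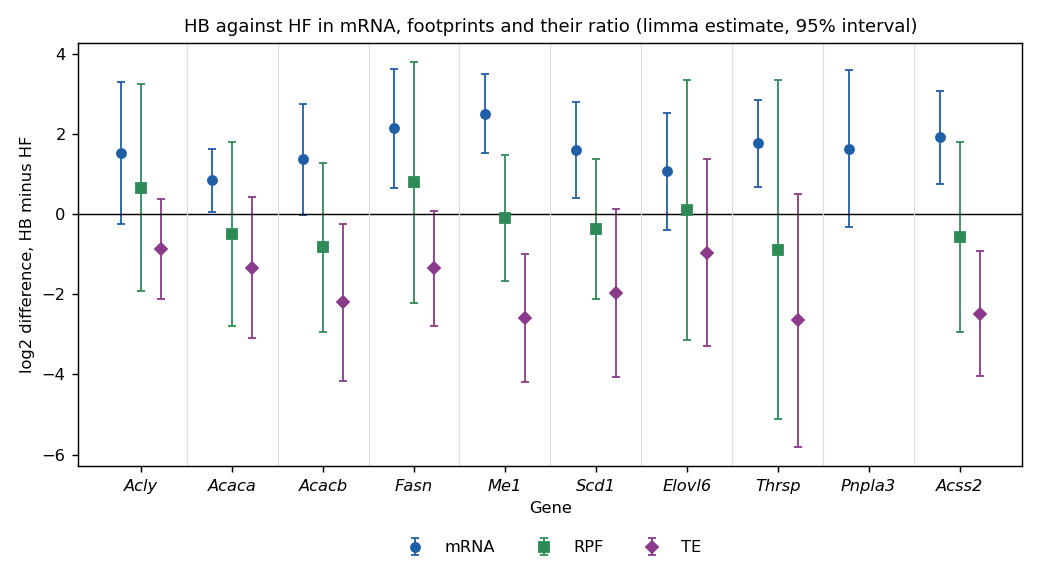
log2 difference between the HB and HF groups for each lipogenic gene in mRNA (blue circles), footprints (green squares) and TE (purple diamonds), as limma estimates with 95% intervals. mRNA estimates lie above 0 for all 10 genes and TE estimates below 0 for all 9 tested, while every footprint interval spans 0. Pnpla3 was tested for mRNA only, where it passed the filter through HB1 alone.

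The genes around the pathway were counted in lists of 92 genes in all. At the mRNA level 80 could be tested, of which 6 were called higher and 1 lower in the HB group, beside 2.30% and 6.56% of all genes. By the adjusted rule 14 were higher and 2 lower, beside 5.01% and 12.7% of all genes. Of the higher genes, carbon supply held 4, the partners in elongation, desaturation and activation 5, and mitochondrial fatty acid synthesis 3. Among 84 tested for footprints, 0 were higher and 3 lower, beside 1.58% and 7.86% of all genes. Among 80 tested for TE, 1 was higher and 6 lower, beside 1.49% and 4.60% of all genes. In the list of carbon supply, which runs from glucose uptake to citrate export, 16 of 17 genes tested had an mRNA log2 fold change above 0 (median 0.77) and 2 were called. These were the malate dehydrogenases, which interconvert malate and oxaloacetate. Cytosolic Mdh1 rose from 109 and 102 RPKM in the HF libraries to 390 and 299 RPKM in the HB libraries (log2 1.69, adjusted p = 0.00526, limma). Mitochondrial Mdh2 rose from 68.8 and 77.8 RPKM to 199 and 206 RPKM (log2 1.45, adjusted p = 0.00633, limma). Unlike the members, Mdh2 was about equal in HB1 and HB2. Footprints of Pdha1, a subunit of pyruvate dehydrogenase, were called lower, at 74.9 and 103 RPKM in the HF libraries and 35.4 and 19.7 RPKM in the HB libraries (adjusted p = 0.493, limma).

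In the list of NADPH supply, which leaves out Me1, all 10 genes tested had an mRNA log2 fold change above 0, with a median of 0.53. Both HB libraries lay above both HF libraries in 8 of them, beside 24.8% of all genes tested, and none was called by either rule. G6pdx, the first enzyme of the pentose phosphate pathway, was at 2.43 and 1.58 RPKM in HF1 and HF2 and 2.51 and 1.73 RPKM in HB1 and HB2, with overlapping groups.

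Among the partners in elongation, desaturation and fatty acid activation, 4 of 16 genes tested were called higher in mRNA and none lower (median 0.45). Elovl5, an elongase of polyunsaturated fatty acids, was at 93.2 and 66.0 RPKM in the HF libraries and 403 and 245 RPKM in the HB libraries (log2 1.99, adjusted p = 0.00526, limma). Cyb5b, a cytochrome b5 of the outer mitochondrial membrane, went from 28.4 and 26.9 to 114 and 73.8 RPKM. Acsl5, an acyl-CoA synthetase, went from 29.9 and 21.4 to 157 and 71.6 RPKM. The other called gene, Hsd17b12, a reductase of the elongation cycle named after its value was seen, went from 37.5 and 34.7 to 109 and 75.5 RPKM. Each of these genes was also higher in HB1 than in HB2. Footprints of Elovl2, another elongase of polyunsaturated fatty acids, were called lower (168 and 229 RPKM in HF1 and HF2, 92.4 and 77.4 RPKM in HB1 and HB2, adjusted p = 0.493, limma). In the list of mitochondrial fatty acid synthesis, footprints of Aasdhppt, which attaches the phosphopantetheine arm to acyl carriers, were called lower (adjusted p = 0.493, limma). They were at 9.09 and 11.0 RPKM in the HF libraries and 0 in both HB libraries, which allows up to 4.11 RPKM in HB1 and 7.46 RPKM in HB2. Aasdhppt passed the filter through the HF libraries alone, so its direction was fixed in advance and the call is no support.

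Of 18 transcriptional regulators tested, 5 had an mRNA log2 fold change above 0 and 13 below, with a median of -0.17 near the -0.19 of all genes, and Mlxipl, which encodes ChREBP, was called lower. Its mRNA was at 434 and 504 RPKM in HF1 and HF2 and at 132 and 165 RPKM in HB1 and HB2 (log2 -1.66, SE 0.27, adjusted p = 0.00557, limma). Its footprints, at 11.1 and 19.5 RPKM in HF1 and HF2 and 21.1 and 8.06 RPKM in HB1 and HB2, overlapped. Srebf1, which encodes SREBP-1, had mRNA levels of 47.8 and 103 RPKM in HF1 and HF2 and of 121 and 62.7 RPKM in HB1 and HB2 (log2 0.31, SE 0.41, adjusted p = 0.598, limma). Like Acly, Srebf1 was lower in HF1 than in HF2 and higher in HB1 than in HB2. By the adjusted rule, Insig1 of this list was higher (log2 1.44, adjusted p = 0.0372, limma) and Mlxipl lower. Among the regulators of acetyl-CoA carboxylase and the relatives of Pnpla3, none of 9 and none of 3 genes tested were called in mRNA by the unadjusted rule. By the adjusted rule 1 of the 9 was higher and 1 lower, both named after their values were seen. Mid1ip1, a relative of Thrsp that binds acetyl-CoA carboxylase, was at 5.63 and 7.32 RPKM in HF1 and HF2 and at 46.0 and 15.4 RPKM in HB1 and HB2 (log2 1.90, adjusted p = 0.0129, limma). Prkag2, a subunit of AMP-activated protein kinase, was at 20.5 and 13.9 RPKM in HF1 and HF2 and at 8.18 and 5.38 RPKM in HB1 and HB2 (log2 -1.22, adjusted p = 0.0164, limma).

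In TE, Prkag2 was the list gene called higher, with ratios of 0.226 and 0.326 in HF1 and HF2 and of 1.71 and 1.96 in HB1 and HB2 (log2 2.46, adjusted p = 0.334, limma). The 6 called lower were Pdha1, Elovl2, Elovl5, Acsl5, Mcat and Aasdhppt, with log2 fold changes from -3.46 (Aasdhppt) to -2.28 (Pdha1) and adjusted p from 0.328 to 0.365 (limma). The TE of Elovl5 was 2.36 and 7.95 in HF1 and HF2 and 0.892 and 0.539 in HB1 and HB2. Elovl2 had ratios of 4.05 and 5.13 against 0.562 and 1.16, and Acsl5 had 1.92 and 3.80 against 0.434 and 0.625. In these 3 genes the mRNA was higher in both HB libraries than in both HF libraries. The ratios of Pdha1 were 2.15 and 3.58 against 0.622 and 0.484. Mcat, the malonyl transferase of mitochondrial fatty acid synthesis, had 1.34 and 0.856 against 0 and 0.273, and Aasdhppt had 1.49 and 1.71 against 0 in both HB libraries, where it had no footprint reads, so that its fitted fold change depends on the pseudocount.

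Among the 4526 genes with a mean mRNA level of at least 10 RPKM outside the members, 5 had the mRNA profile nearest to the mean of the members over the 4 libraries, by Euclidean distance between centred log2 values. The nearest was Insig1 (distance 0.50), a sterol-regulated partner of SCAP in the endoplasmic reticulum, at 44.0 and 43.9 RPKM in HF1 and HF2 and at 212 and 68.9 RPKM in HB1 and HB2. It was followed by Agmo (0.56), Lactb2 (0.63), Cyp2c29 (0.63) and Gbe1 (0.66). In footprints, Insig1 was at 62.3 and 176 RPKM in HF1 and HF2 and at 194 and 71.9 RPKM in HB1 and HB2, with HF2 and HB1 high as in Fasn and Acly, whereas Agmo was at 39.5 and 32.9 RPKM in HF1 and HF2 and 25.3 and 39.2 RPKM in HB1 and HB2. With 4 libraries, this likeness is a description.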

How the data were processed

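Liver RNA-seq and Ribo-seq libraries (2 per group and assay) were analysed from the RPKM values per gene that the authors deposited, 1 file per library, with no averaging of replicates. Reads were aligned by the authors with FANSe2 to mm10. Implied gene lengths matched a whole transcript of GENCODE M21 for 10.9% of Ribo-seq genes checked and a coding length for 0.0%, so footprint RPKM appear to be scaled by transcript length, which would lower the TE of genes with long non-coding ends such as Elovl6 and Scd1. The edgeR test named in the submitters' processing notes needs counts and was not used here. Tests were made in R 4.3.3 with the package limma 3.58.1 (trended empirical Bayes, two-sided p), on genes whose mean RPKM reached 1, using log2(RPKM + 1), so fold changes of low genes are understated, and TE on log2((RPF RPKM + 1)/(mRNA RPKM + 1)). Printed TE values have no pseudocount. Library totals and whole reads were recovered from RPKM steps (99.99% or more of values above 0) and used for intervals (exact binomial, 95%, counting error only), for the floor of 3 reads and for limma-voom. A symbol found more than once removed 4 RNA-seq entries. The fit and the calling rule for mRNA and footprints were tested on simulated reads, with less spread between libraries than the members showed. The other steps had no such test.

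All 10 members are named, with the genes of each pathway list called in mRNA or RPF (up to 3 per list and measure), Srebf1, Mlxipl and the 5 genes with the most similar profile. G6pdx, Hsd17b12, Mid1ip1 and Prkag2 were added after their values were seen, and Mcat was named for its TE call, outside this rule. The members and lists were chosen with earlier results of these data known. Alternatives were a pseudocount of 0.1, no filter or a mean of 5 RPKM, common sum or median, no variance trend, a replicate block, adjusted p, each library left out, an interaction model, voom and, chosen after seeing the data, crossed blocks and crossed TE numbers.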

Additional observations from a re-analysis of the deposited data

How the results depend on the processing

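The number of members called in mRNA was 1 as reported (2.30% of all genes called higher), 4 with an adjusted p (5.01%), 0 without a filter on low values (0.459%), and 1 (without HB1, 2.36%) to 9 (without HB2, 4.67%) with single libraries left out. For footprints it was 0, and 0 to 4 with libraries left out (4 without HB1, 2 without HB2). For TE it was 3, with 0 at an adjusted p, 7 with a common sum (where 13.9% of all genes were called lower, against 4.60%, and the median of all genes was -1.03), 2 with a pseudocount of 0.1 (6.57%, Acacb losing its call), 1 in the interaction model (4.39%), 1 with crossed TE numbers (4.35%) and 0 (without HF2, 1.93%) to 4 with libraries left out. The 4 stood beside 1.24% of all genes called lower without HF1, 13.3% without HB1 and 7.58% without HB2. The 0 for TE at an adjusted p stood beside 0% of all genes. Medians over members with libraries left out ranged from 0.80 to 2.73 in mRNA, from -1.46 to 0.69 in footprints and from -2.69 to -0.96 in TE. The cause was not tested.

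Some signs turned. With libraries left out, the log2 fold change of mRNA ranged from -0.02 to 3.08 for Acly and from -0.23 to 2.35 for Elovl6, the lower value without HB1 and the higher without HB2. Footprints ranged in the same way from -0.68 to 2.00 (Acly), -1.64 to 0.65 (Acaca), -1.87 to 0.21 (Acacb), -0.84 to 2.42 (Fasn), -0.70 to 0.50 (Me1), -1.06 to 0.29 (Scd1), -1.46 to 1.66 (Elovl6), -3.34 to 1.57 (Thrsp) and -1.82 to 0.69 (Acss2). Without HF1, Elovl6 footprints were at -0.97 and its TE at -2.39, and without HF2, Me1 and Scd1 footprints were at 0.49 and 0.27 and Elovl6 TE at 0.46. With a common sum, Acly, Fasn and Elovl6 footprints were at -0.18, -0.05 and -0.71, and with a common median Me1 footprints were at 0.23. A common median moved the mRNA median of all genes from -0.19 to 0.08 and the calls from 246 higher and 701 lower to 540 and 291, and a common sum moved the footprint median of all genes from -0.43 to -1.19. All 10 members stayed above 0 in mRNA under both scalings, Pnpla3 through HB1 alone.

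Same-numbered HF and HB libraries deviated from their group means with correlations of -0.104 (mRNA) and -0.0138 (footprints), and same-numbered mRNA and footprint libraries with -0.00239 (HF) and -0.0774 (HB), which gives no evidence that the numbers pair them, and whether they do was not settled. The replicate block called 8 members in mRNA, beside 4.66% of all genes higher and 11.5% lower, and the crossed block called 5, beside 4.44% and 12.2%. In footprints HB2 held 81 reads for the 9 members other than Scd1. Scd1, with at least 957 footprint reads in every library, still had an SE of 0.68, so the spread between libraries limits it as well.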
